A study of Mus musculus with 12 samples.

Results

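Whole-kidney transcript levels of Alport mice given metformin were compared with those of Alport mice given vehicle. The comparison rests on 6 of the 12 samples of the series, chosen by their titles: 3 samples with metformin and 3 with vehicle. Both groups carried the same hemizygous nonsense allele of Col4a5, G5X, and had a stated age of 16 weeks. Metformin was given in the drinking water at 2.5 mg/mL from week 6 to week 11 of age and at 5 mg/mL from week 12. In the labels this second dose runs to week 20, past the stated age. They also describe losartan as co-administered, and group names here follow the drug given in each title. The other groups serve as reference points. One is the same Alport genotype at the same age given losartan, an angiotensin II receptor blocker, at 125 and later 250 µg/mL (3 samples). The other is wild type given vehicle at the same age (3 samples). Every sample was whole kidney, 100 ng of RNA went into each labelling, and the labels do not say whether the samples are separate mice. The spread behind each p-value is that between samples and could be technical.

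Alport syndrome is caused by loss of the type IV collagen network of the glomerular basement membrane, and in mice as in patients it leads from protein leakage to tubular damage, interstitial fibrosis and kidney failure. Metformin, a biguanide, is a glucose-lowering drug that acts mainly on the liver. It enters tubule cells by organic cation carriers, is excreted unchanged in the urine, inhibits respiratory complex I and activates the energy-sensing kinase AMPK. The comparison asks which classes of transcripts are lower or higher in the diseased kidney when the drug is given.

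All 22206 probe sets of the Clariom S array had a value in every sample, given as log2 and running from 2.3 to 19.88, and the sample medians lay between 5.88 and 6.065. For arrays the number of samples limits the precision. Kidney markers were bright in each of the 6 samples: Slc34a1, which reclaims phosphate in the proximal tubule, read 18.40 to 19.01, and Umod, the secreted protein of the thick ascending limb, read 18.72 to 18.94. Col4a5 itself averaged 5.43 in wild type, 4.51 with vehicle and 4.49 with metformin. It did not differ between the drug groups (-0.03 ± 0.23 on the log2 scale, adjusted p = 0.977), and the array does not read the point mutation. Vehicle sample 2 and metformin sample 3 resembled wild type more than the other samples of their groups did, with correlations across probe sets of 0.983 to 0.985 and 0.990 to 0.991. The other vehicle samples reached 0.975 to 0.978 and the other metformin samples 0.984 to 0.988. For this reason counts are given below with the samples whose omission moved them.

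Metformin changed 1096 of 22206 probe sets at an adjusted p under 0.05 in a linear model of all 12 samples, which is 4.94% of those tested. Of these, 592 rose (2.67% of all probe sets) and 504 fell (2.27%). A change of at least 2-fold was seen in 211 of the rises and 219 of the falls. The shares of 2.67% and 2.27% are the reference for the list counts below. At an unadjusted p under 0.05 there were 4132 of 22206 probe sets, both directions together. The share of rises among the calls was 54.0%, and it was 68.5% after each sample was centred on its median, a step that moved the median difference of all probe sets from -0.01 to 0.06 on the log2 scale. The calls depended on single samples: 347 remained in number without vehicle sample 1, 728 without vehicle sample 3, 647 without metformin sample 2 and 266 without metformin sample 3. In each of the 6 fits with 1 of these samples left out, 226 of the probe sets passed the test, and most examples below are among them. Values after ± are standard errors of this model, from 3 samples against 3.

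**Figure D1:**
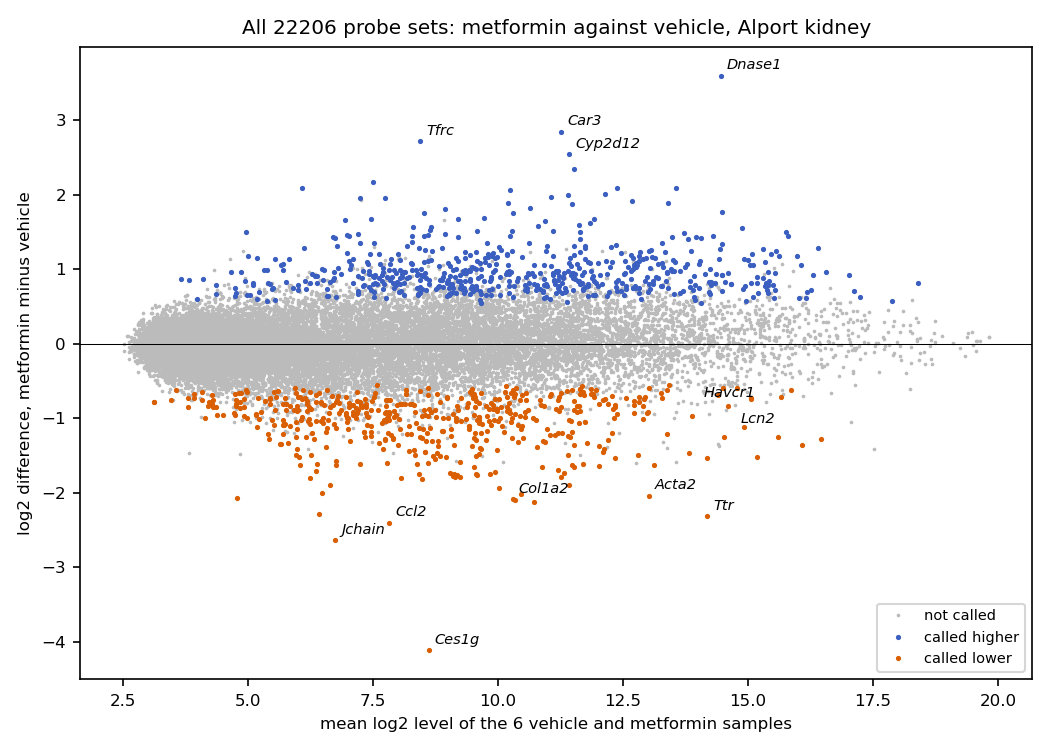
Log2 difference between metformin and vehicle (vertical) against the mean log2 level of the 6 samples (horizontal), 1 point per probe set, with the 592 called rises in blue, the 504 called falls in orange and the rest in grey. Dnase1 stands highest at 3.60 and Ces1g lowest at -4.12, while the injury markers Havcr1 and Lcn2 lie among the grey points.

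The largest fall was that of Ces1g, a carboxylesterase that hydrolyses lipid esters and drugs. It read 10.07, 10.30 and 11.63 in the vehicle samples and 7.57, 5.85 and 6.23 in the metformin samples. All 3 metformin values lay below every sample of the 3 other groups, and the fall of 4.12 ± 0.43 on the log2 scale was 17.4-fold (adjusted p = 0.000174). Its neighbours in the Ces1 family are close in sequence and may share signal on the array. Transthyretin (Ttr), the carrier of thyroid hormone and retinol-binding protein, read 15.53, 15.07 and 15.43 with vehicle and 13.49, 12.81 and 12.79 with metformin, a 4.97-fold fall (-2.31 ± 0.28, adjusted p = 0.000747). It ended below wild type as well, by 1.13 on the log2 scale (adjusted p = 0.0308).

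The largest rise was that of Dnase1, the secreted nuclease of kidney tubules and urine. It read 11.90, 13.05 and 13.01 with vehicle and 16.02, 16.21 and 16.53 with metformin, a 12.1-fold rise (3.60 ± 0.28, adjusted p = 1.6e-05) that brought it to the wild type mean of 15.73 and above. Car3, a carbonic anhydrase best known from muscle, fat and liver, read 9.34, 10.01 and 10.14 with vehicle and 11.51, 13.21 and 13.32 with metformin (7.21-fold, 2.85 ± 0.40, adjusted p = 0.00152). Metformin sample 1 was the lowest of its group here, and without it the difference was 3.44. Tfrc, the receptor that takes up iron-loaded transferrin, read 6.07, 7.59 and 7.56 with vehicle and 9.51, 10.12 and 9.76 with metformin (6.6-fold, 2.72 ± 0.42, adjusted p = 0.00303). Cyp2d12, a tubular cytochrome P450, rose 5.84-fold from 9.84, 10.24 and 10.38 to 12.32, 12.47 and 13.31 (2.55 ± 0.26, adjusted p = 0.000174). In none of these 4 genes did the groups overlap, which adds little because the genes were chosen by this test.

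**Figure D2:**
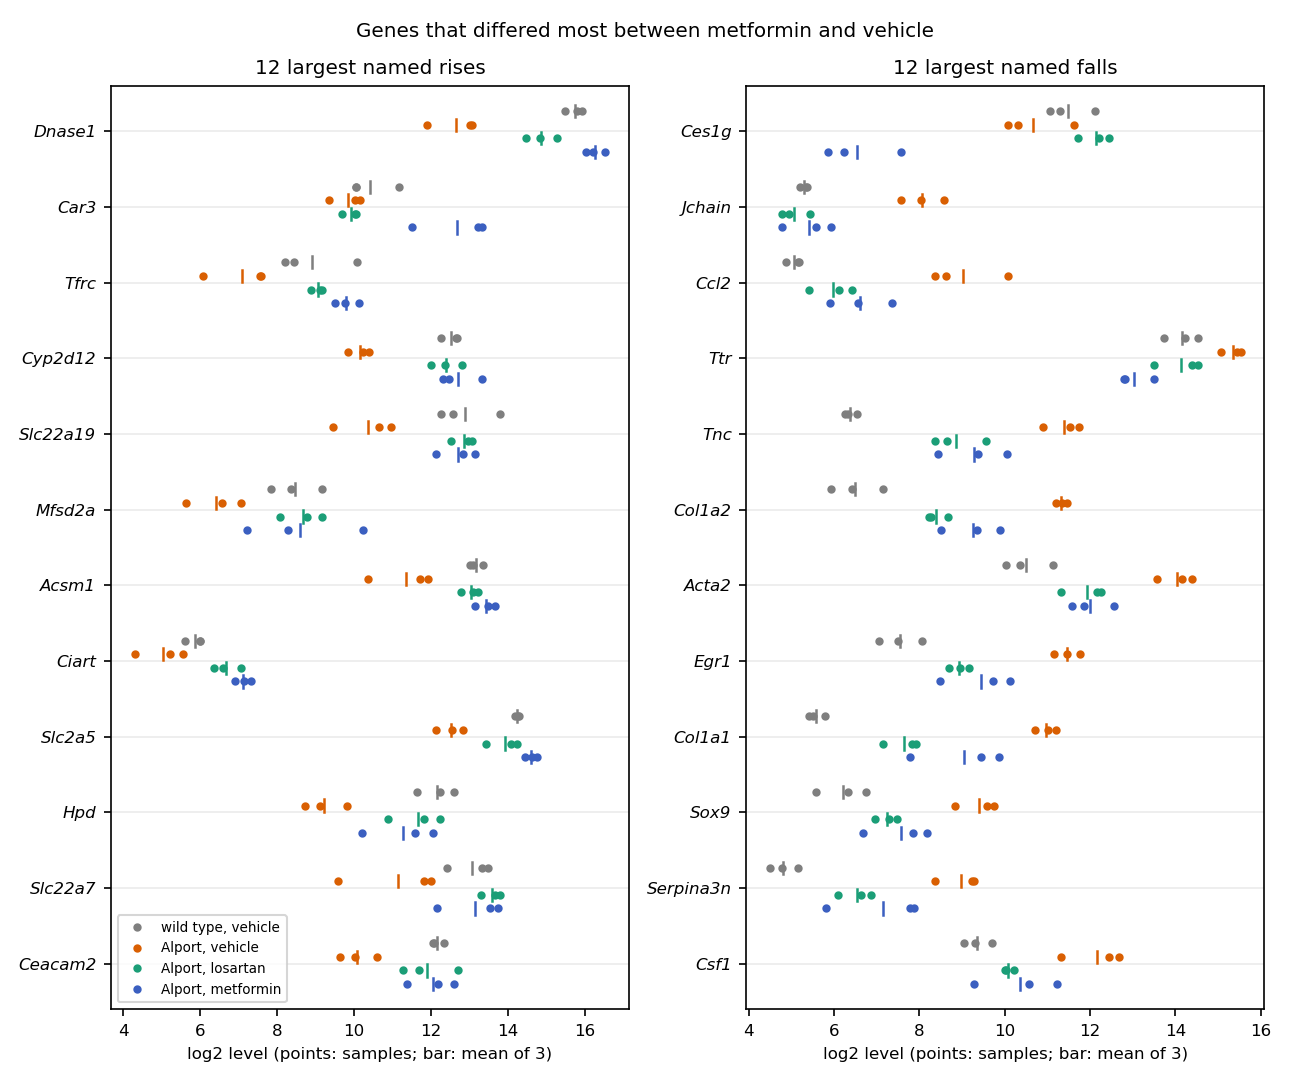
Log2 level (horizontal) of the 12 named genes with the largest rises (left) and the 12 with the largest falls (right) in each of the 12 samples, coloured by group, with the mean of 3 samples as a bar. With metformin Dnase1 lies at 16.02 to 16.53 against 11.90 to 13.05 with vehicle, and Ces1g at 5.85 to 7.57 against 10.07 to 11.63.

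Of these 24 genes, 6 lost their call when a single sample was left out. Mfsd2a, a carrier of lysophosphatidylcholine, rose 4.5-fold (adjusted p = 0.0385) and missed the threshold without vehicle sample 1 (adjusted p = 0.167) or 3 (0.0733) and without metformin sample 2 (0.124) or 3 (0.0876). Without metformin sample 1 its difference moved from 2.17 to 2.85 on the log2 scale. Slc22a7, an organic anion carrier, rose 4.03-fold (adjusted p = 0.0356) and missed it without vehicle sample 1 (0.131) or metformin sample 2 (0.114) or 3 (0.153). Hpd, an enzyme of tyrosine breakdown, rose 4.17-fold (adjusted p = 0.0128) and missed it without vehicle sample 1 (0.0564) or metformin sample 3 (0.0727). The other three are falls. Sox9, a transcription factor of regenerating tubules, fell 3.53-fold and reached an adjusted p of 0.053 without vehicle sample 1. Serpina3n, a secreted protease inhibitor, and Csf1, the growth factor of macrophages, fell 3.5-fold and 3.46-fold, and missed the threshold without vehicle sample 1 (0.1 and 0.0876), vehicle sample 3 (0.0711 and 0.057) or metformin sample 3 (0.0692 and 0.0743).

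The class with the most falls was the interstitial matrix, the collagens and glycoproteins that fibroblasts lay down between tubules. Of 28 measured members, 17 fell (60.7%) and 0 rose, against 2.27% of all probe sets that fell, and all 28 differences were negative, with a median of -1.02. Without metformin sample 3 the number that fell was 11. In bulk tissue, fewer cells of a type and less RNA per cell cannot be told apart, here as in every class below. Col1a2, a chain of fibrillar collagen I, read 11.19, 11.34 and 11.46 with vehicle and 9.36, 9.88 and 8.50 with metformin, a 4.24-fold fall (-2.08 ± 0.31, adjusted p = 0.00234). Its partner chain Col1a1 read 10.71, 11.01 and 11.21 with vehicle and 9.45, 9.87 and 7.79 with metformin (3.84-fold, -1.94 ± 0.38, adjusted p = 0.00897). The groups did not overlap in either gene, but metformin sample 3 was far below the other metformin samples, and without it the difference of Col1a1 was -1.32.

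Tnc, a matrix glycoprotein of repairing tissue, fell 4.28-fold (-2.10 ± 0.35, adjusted p = 0.00457), with 11.52, 10.90 and 11.74 in the vehicle samples and 9.38, 10.06 and 8.43 in the metformin samples. The matrix glycoprotein Fbln1 read 9.82, 9.98 and 10.56 with vehicle and 8.57, 8.37 and 8.07 with metformin (3.44-fold, -1.78 ± 0.23, adjusted p = 0.00111). Decorin (Dcn), a proteoglycan that binds collagen fibrils, fell 2.89-fold (-1.53 ± 0.22, adjusted p = 0.00167). The matrix genes stayed above wild type: 15 of the 28 were still higher with metformin than in wild type kidney, and the median difference from wild type was 1.14. Col1a1 was 3.46 and Tnc 2.91 above wild type on the log2 scale (adjusted p = 8.9e-05 and 0.000229).

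The contractile genes of myofibroblasts and smooth muscle fell in 7 of 16 measured members (43.8%, against 2.27% of all probe sets), and 0 rose. All 16 differences were negative, with a median of -0.82, and 7 or 8 members fell whichever single sample was left out. Acta2, the smooth muscle actin that marks myofibroblasts, read 14.15, 13.57 and 14.39 with vehicle and 12.57, 11.85 and 11.57 with metformin (4.11-fold, -2.04 ± 0.32, adjusted p = 0.00324). Tagln, an actin-binding protein of the same cells, read 12.26, 11.81 and 12.50 with vehicle and 10.84, 10.50 and 10.04 with metformin (3.32-fold, -1.73 ± 0.24, adjusted p = 0.00143). Cnn1, the thin-filament protein calponin, fell 2.54-fold (-1.35 ± 0.21, adjusted p = 0.00324) and at 4.80 to 5.07 stood at its wild type mean of 4.94. Cald1, caldesmon, fell 2.33-fold (-1.22 ± 0.18, adjusted p = 0.00215).

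Contractile genes are textbook targets of serum response factor, which binds the CArG box (CC, 6 letters of A or T, GG). In the 250 bases before the RefSeq start sites of these genes, 1 of 13 windows (12 genes) held a CArG box, against 1.33% of 19143 windows of genes on the array. That window belongs to Myl9, a myosin light chain, which was named for this match after its values were seen. Myl9 read 9.98, 10.03 and 9.87 with vehicle and 8.89, 8.75 and 8.94 with metformin, a fall of 1.10 ± 0.19 on the log2 scale (adjusted p = 0.0053). Its window, chr2:156775214-156775463 on the plus strand of GRCm38.p6, is printed with the CArG box, 161 to 152 bases before the start, in capitals.
Myl9: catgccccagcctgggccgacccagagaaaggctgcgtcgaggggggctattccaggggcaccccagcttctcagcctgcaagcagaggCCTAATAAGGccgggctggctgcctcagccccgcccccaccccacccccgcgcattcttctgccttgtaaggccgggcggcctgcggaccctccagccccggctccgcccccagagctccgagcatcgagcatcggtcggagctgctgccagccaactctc
The letters describe the window and show no binding.

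Enzymes that remodel or assemble matrix fell in smaller shares. Among matrix proteases and their inhibitors 8 of 20 fell (40%, against 2.27% of all probe sets) and 0 rose. This number was 2 without vehicle sample 1 or metformin sample 3, and 5 without vehicle sample 3 or metformin sample 2. Timp2, an inhibitor of matrix metalloproteinases, read 12.49, 12.07 and 12.95 with vehicle and 11.36, 10.93 and 10.39 with metformin (3.05-fold, adjusted p = 0.00215). Mmp14, a membrane-bound collagenase, fell 3.34-fold (-1.74 ± 0.30, adjusted p = 0.00503). Among collagen-processing enzymes 4 of 17 fell and 1 rose, with 2 falls without vehicle sample 1 or 2 and 1 without metformin sample 3. Lox, which cross-links collagen, fell 3.06-fold from 9.31, 8.54 and 9.68 to 7.66, 8.05 and 6.98 (adjusted p = 0.00504). The riser was P4ha2, a collagen prolyl hydroxylase (1.89-fold, adjusted p = 0.00907, and 0.0524 without vehicle sample 1).

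Basement membrane genes fell in 5 of 21 measured members (23.8%, against 2.27% of all probe sets). The number was 3 without vehicle sample 1 and 2 without metformin sample 3. Nid1, which links laminin to collagen IV, read 12.22, 11.77 and 11.65 with vehicle and 10.81, 10.80 and 10.45 with metformin (2.29-fold, adjusted p = 0.00345). Hspg2, the heparan sulfate proteoglycan perlecan, fell 1.98-fold (adjusted p = 0.00593). In the TGF-beta pathway, the central profibrotic signal, all 20 measured members were lower with metformin and 4 passed the test. That number was 2 without vehicle sample 1 or metformin sample 2 or 3, and 8 without vehicle sample 2. The target gene Ccn2 (connective tissue growth factor) read 11.88, 12.13 and 12.84 with vehicle and 10.81, 10.42 and 10.75 with metformin (3.08-fold, -1.62 ± 0.22, adjusted p = 0.00143), level with the wild type mean of 10.67. The ligand Tgfb1 fell 2.35-fold (-1.23 ± 0.29, adjusted p = 0.0237), from 12.48, 11.35 and 12.19 to 11.27, 10.87 and 10.18. Its call was lost without vehicle sample 1 (adjusted p = 0.121) or 3 (0.0734) and without metformin sample 2 (0.0546) or 3 (0.126). Of 5 PDGF ligands and receptors only the receptor Pdgfrb of pericytes and fibroblasts passed (2.29-fold lower, adjusted p = 0.0078, and 0.0529 without metformin sample 3).

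**Figure D3:**
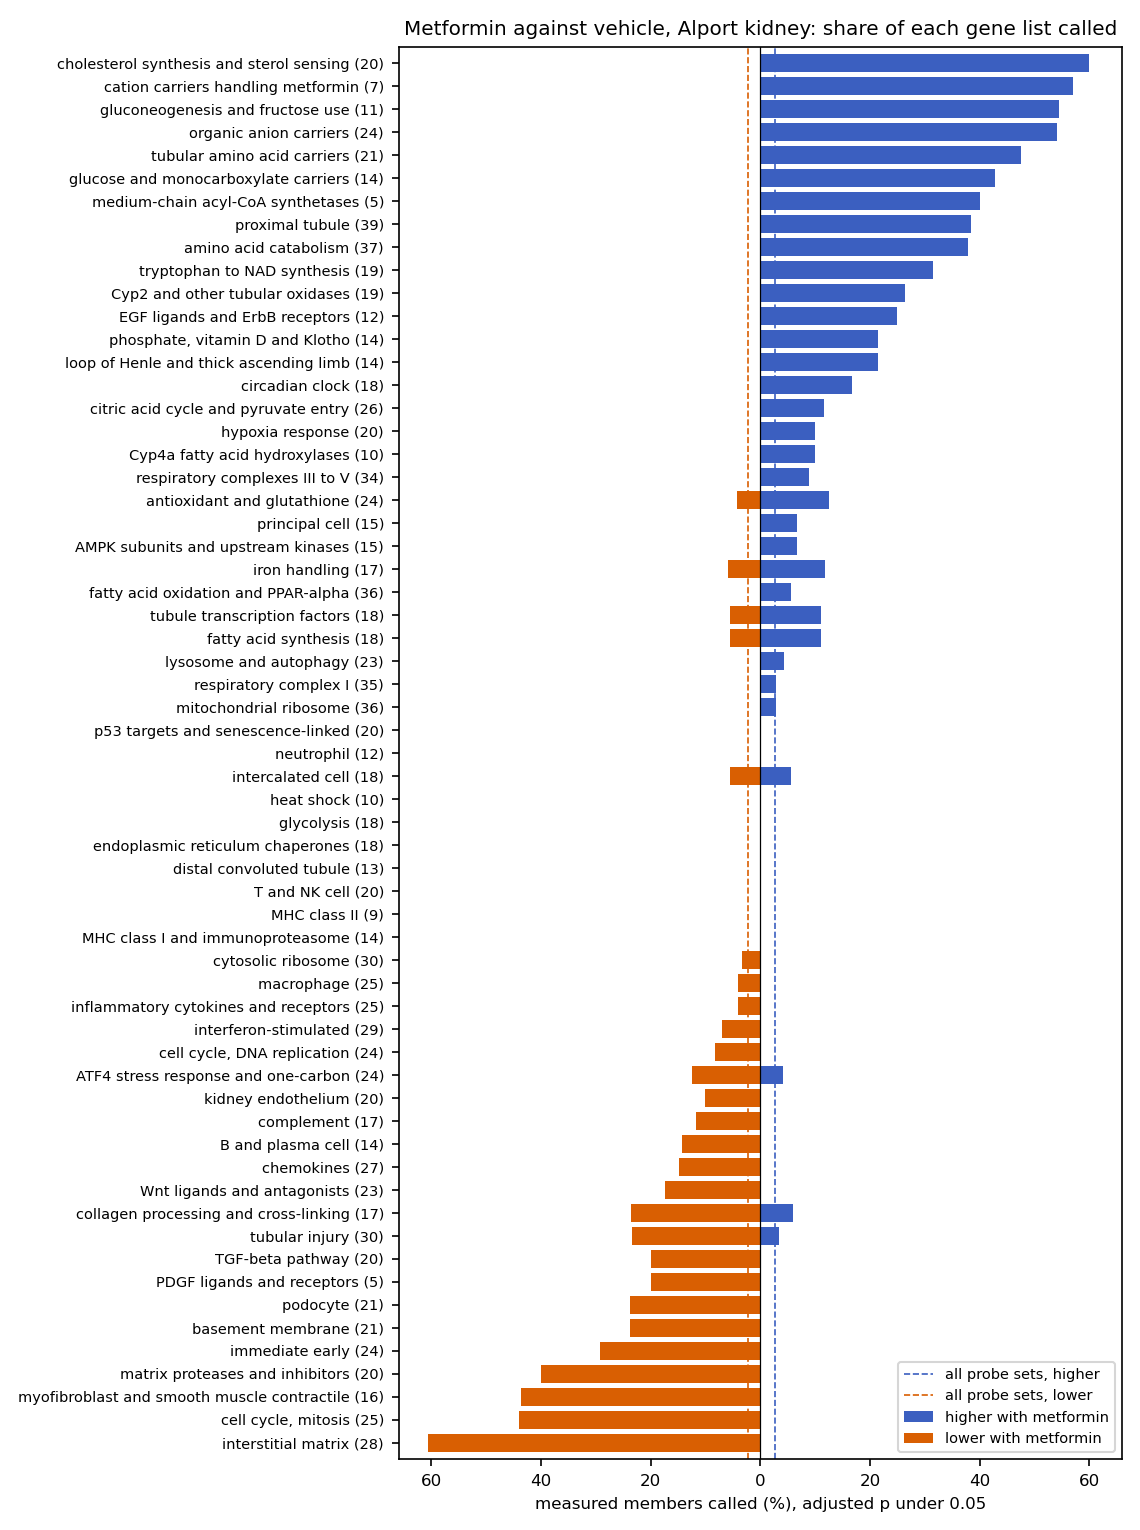
Share of the measured members of each gene list that rose (blue, to the right) or fell (orange, to the left) with metformin, in percent, with the number measured in brackets and dashed lines at the shares over all probe sets (2.67% higher, 2.27% lower). The longest bars are cholesterol synthesis to the right (12 of 20) and interstitial matrix to the left (17 of 28), and lists such as MHC class II and glycolysis have none.

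Among lists tied to growth, falls were concentrated in mitosis and immediate early genes. Of 25 mitosis genes, 11 fell (44%, against 2.27% of all probe sets) and 0 rose, all 25 being lower with metformin (median -0.74). The count was 1 without vehicle sample 1 or metformin sample 3, 6 without vehicle sample 2 and 7 without metformin sample 2. Mki67, the proliferation marker, read 9.61, 9.85 and 9.29 with vehicle and 8.48, 8.58 and 7.17 with metformin (2.84-fold, -1.51 ± 0.29, adjusted p = 0.00801). It stayed 1.77 above wild type (adjusted p = 0.00235), and with only the compared groups in the fit its adjusted p against vehicle was 0.0501. Genes of DNA replication fell in 2 of 24, with 1 without metformin sample 1, 0 without any other single sample except vehicle sample 2, and a median of -0.08. Immediate early genes, which are switched on within minutes by growth factors and stress, fell in 7 of 24 (29.2%), with 3 without vehicle sample 1 or metformin sample 3. Egr1, a zinc finger factor of this class, read 11.46, 11.77 and 11.15 with vehicle and 10.13, 9.73 and 8.48 with metformin (4.04-fold, -2.01 ± 0.34, adjusted p = 0.00452). Ccn1, a secreted matricellular protein, fell 2.9-fold to 11.97, 11.46 and 11.25 (adjusted p = 0.00542), around its wild type mean of 11.68. Ier3 fell 2.29-fold (adjusted p = 0.00599).

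EGF ligands and ErbB receptors went the other way, with 3 of 12 higher (25%, against 2.67% of all probe sets) and 0 lower. The number higher was 1 without metformin sample 1 and 0 without vehicle sample 1 or metformin sample 3. Egf, a growth factor made in the loop of Henle and distal tubule, read 12.46, 13.79 and 12.64 with vehicle and 13.92, 14.19 and 15.26 with metformin (2.81-fold, 1.49 ± 0.33, adjusted p = 0.0178). Its call was lost without vehicle sample 1 (adjusted p = 0.0959) or 3 (0.064) or metformin sample 3 (0.0889). Its receptor Egfr rose 1.7-fold (adjusted p = 0.0159), a call lost without vehicle sample 1 (0.077) or metformin sample 1 (0.0511) or 3 (0.062). The related receptor Erbb3 rose 1.73-fold (adjusted p = 0.0411), a call lost without vehicle sample 1 (0.0975) or 2 (0.115) or metformin sample 1 (0.0829) or 3 (0.197). Of 20 p53 target genes limma called 0, with 1 fall without vehicle sample 2 or metformin sample 2. At an unadjusted p under 0.05, 3 were higher and 6 lower, against 4132 of 22206 probe sets in either direction. Of 30 cytosolic ribosomal protein genes 1 fell, a call kept only without metformin sample 1 among the fits that left out 1 sample.

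Inflammatory genes showed few calls, and these were among chemokines and single immune markers. By limma's unadjusted p under 0.05, 11 of 27 chemokines and 11 of 25 cytokines and receptors were lower. So were 9 of 25 macrophage and 7 of 17 complement genes. In these lists 0 were higher, against 4132 of 22206 probe sets in either direction. Among the cytokines and receptors, 23 of 25 were lower with metformin (median -0.48). The test called 1 of them, and 0 to 2 when 1 sample was left out. Of 27 chemokines, 4 fell (14.8%, against 2.27% of all probe sets) and 26 were lower with metformin. The falls numbered 7 without vehicle sample 2 or metformin sample 1 and 3 without any other single sample. Ccl2, which draws monocytes into tissue, read 10.08, 8.62 and 8.36 with vehicle and 7.37, 6.57 and 5.91 with metformin (5.29-fold, -2.40 ± 0.40, adjusted p = 0.00426) and stayed 1.54 above wild type (adjusted p = 0.0392). Ccl21a, a chemokine of lymphatic endothelium, fell 2.44-fold (adjusted p = 0.00206) and Ccl17, a T cell attractant, 2.38-fold (adjusted p = 0.00345). Jchain, the joining chain of secreted antibodies and a plasma cell marker, read 8.03, 7.57 and 8.57 with vehicle and 5.92, 5.57 and 4.78 with metformin. Its fall was 6.21-fold (-2.63 ± 0.28, adjusted p = 0.000207), and it ended 0.12 from wild type (adjusted p = 0.876). The list of 14 B and plasma cell genes did not move with it: 8 were lower and 6 higher, with a median of -0.06. Mzb1, another plasma cell gene of this list, was 0.45 higher with metformin (limma adjusted p = 0.311). It was at 2.95 to 3.85 in the 6 samples, near the lower end of the array. In all, 2 of the 14 fell (1 without vehicle sample 1 or 3 or metformin sample 2 or 3). The other fall was Sdc1 (2-fold, adjusted p = 0.039).

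Macrophage genes fell in 1 of 25 measured members (4%, against 2.27% of all probe sets), although 24 of 25 were lower with metformin (median -0.58). The member that passed, the mannose receptor Mrc1, fell 3.36-fold (adjusted p = 0.0388) and lost its call without vehicle sample 1 (adjusted p = 0.157) or 3 (0.139) or metformin sample 2 (0.0676) or 3 (0.182), and its difference moved from -1.75 to -2.41 without vehicle sample 2. The number of macrophage genes that fell was 4 without vehicle sample 2, 2 without metformin sample 1 and 0 without any other single sample. The median level of the 25 genes was 7.84, 7.26 and 8.41 in the vehicle samples and 7.98, 7.42 and 6.38 in the metformin samples. Metformin samples 1 and 2 thus lay within the vehicle range and sample 3 below it, and 19 of the 25 genes were still higher than in wild type. Of 9 MHC class II genes, which present antigen on macrophages and dendritic cells, 0 passed limma's test, and 0 had an unadjusted p under 0.05. H2-Ab1 read 14.29, 13.41 and 14.52 with vehicle and 14.35, 13.70 and 12.46 with metformin (-0.57 ± 0.36, adjusted p = 0.447), the groups overlapping, with a wild type mean of 11.69. Limma's test called 0 of 14 MHC class I genes, 0 of 20 T and NK cell genes and 0 of 12 neutrophil genes. Lower at an unadjusted p under 0.05 were 1, 4 and 2, against 4132 of 22206 probe sets in either direction. Each of these lists had 1 fall when a certain sample was left out, metformin sample 1 for MHC class I and neutrophil genes and vehicle sample 2 for T and NK cell genes. Interferon-stimulated genes fell in 2 of 29, including Ifitm3, a membrane restriction factor (2.51-fold, adjusted p = 0.00568). Complement genes fell in 2 of 17, including the C1 inhibitor Serping1, which read 14.03, 13.38 and 14.39 with vehicle and 12.77, 12.25 and 11.91 with metformin (3.08-fold, adjusted p = 0.00379). Without vehicle sample 2 or metformin sample 1 the complement falls numbered 5 and 6, and without any of vehicle samples 1 and 3 and metformin sample 3 there was 1. The interferon falls numbered 1 without vehicle sample 3 or metformin sample 2 or 3.

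**Figure D4:**
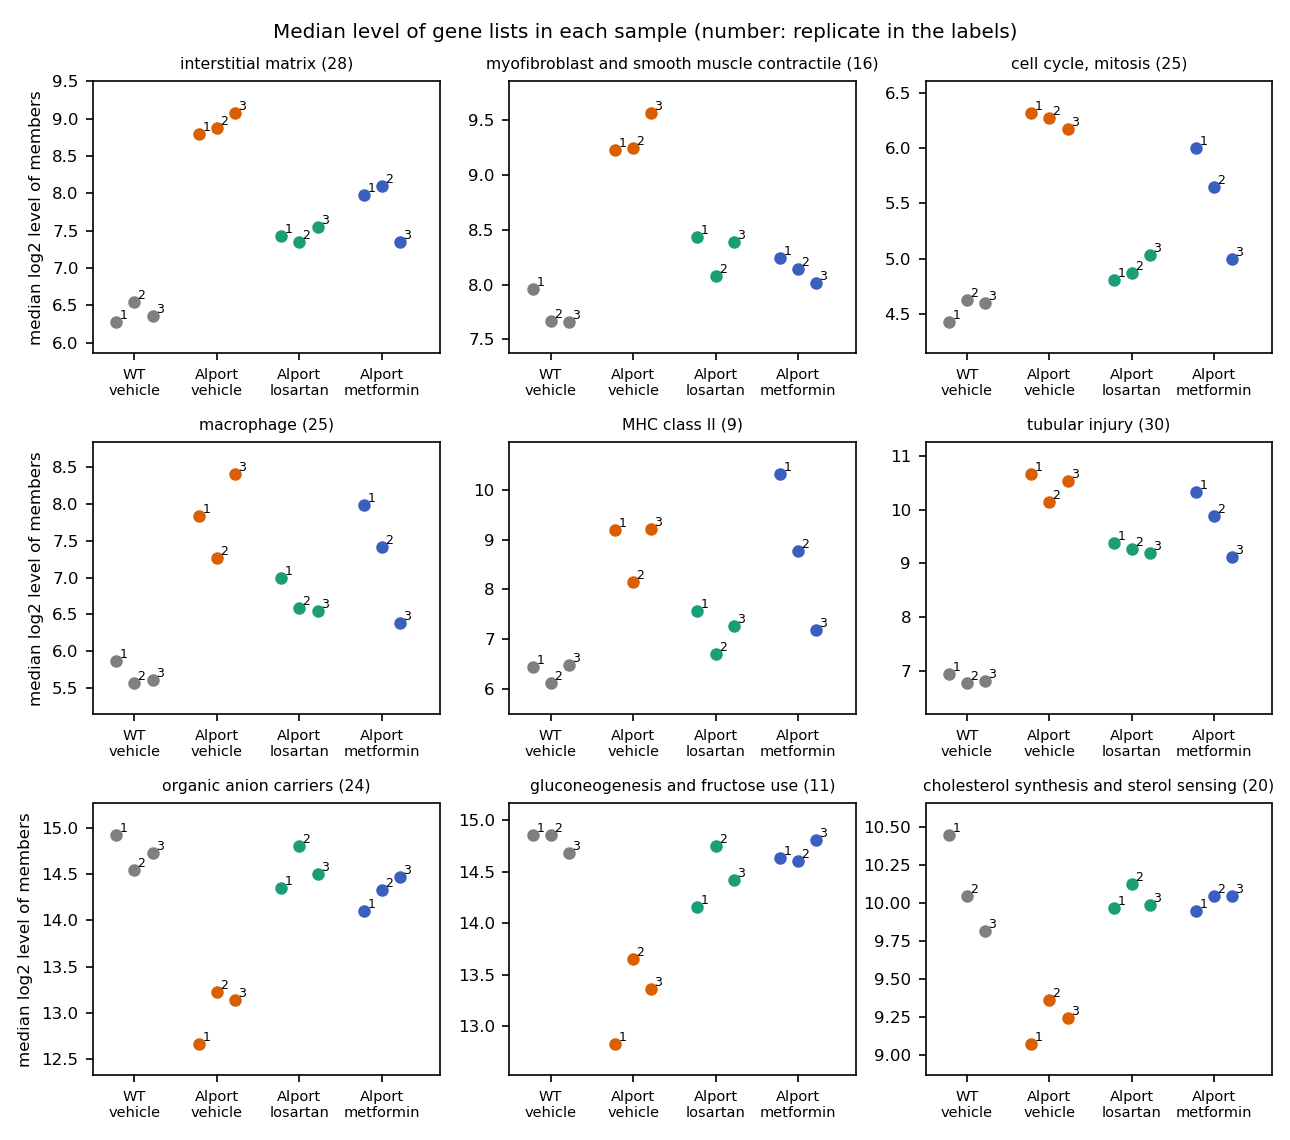
Median log2 level (vertical) of the measured members of 9 gene lists in each of the 12 samples, by group, with the replicate number beside each point. In the interstitial matrix list the metformin samples (7.36 to 8.11) lie between wild type (6.28 to 6.55) and vehicle (8.79 to 9.08), in the MHC class II list metformin sample 1 (10.33) lies above the vehicle samples, and in the gluconeogenesis list the metformin samples (14.61 to 14.81) lie within 0.25 of wild type (14.68 to 14.86).

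The injury markers of the tubule gave a mixed picture. Havcr1 (KIM-1), the apical receptor that injured proximal tubule cells expose, read 15.68, 13.66 and 13.80 with vehicle and 14.55, 14.03 and 12.15 with metformin. Lcn2 (NGAL), an iron-siderophore binder released by damaged tubules, read 15.46, 14.23 and 15.72 with vehicle and 15.04, 14.77 and 13.15 with metformin. The groups overlapped in both genes, and neither passed the test (-0.80 ± 0.56, adjusted p = 0.507, and -0.82 ± 0.68, adjusted p = 0.597). With metformin they stood 6.82 and 8.23 above wild type on the log2 scale (adjusted p = 6.7e-06 for each). Of 30 measured injury genes, 26 were lower with metformin, with a median of -0.76. The test called 7 falls and 1 rise, against 2.27% and 2.67% of all probe sets. With metformin 18 of the 30 were still higher than in wild type. The single rise was lost whichever sample was left out. The falls numbered 2 without vehicle sample 1 or metformin sample 3, 3 without metformin sample 2, 11 without vehicle sample 2 and 13 without metformin sample 1. S100a11, a calcium-binding protein, returned to near wild type: it read 15.60, 15.23 and 15.57 with vehicle and 14.54, 14.44 and 14.08 with metformin, against a wild type mean of 14.30 (2.16-fold, -1.11 ± 0.20, adjusted p = 0.00568). Vim, the mesenchymal filament protein that injured tubules also make, fell 2.83-fold (adjusted p = 0.0103, and 0.0545 without metformin sample 3).

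Podocyte genes, expressed in the cells that carry the filtration slits, fell in 5 of 21 measured members and rose in 0. Of all probe sets 2.27% fell. The number of podocyte genes that fell was 3 without vehicle sample 1 or any single metformin sample. Tcf21, a transcription factor of podocytes and interstitial cells, read 9.34, 9.12 and 10.08 with vehicle and 8.02, 7.91 and 7.96 with metformin (2.93-fold, adjusted p = 0.00353). Thsd7a, a foot process protein, fell 2.08-fold from 10.61, 10.70 and 11.07 to 9.67, 9.69 and 9.85 (adjusted p = 0.00573), and Sema3g, a secreted semaphorin, fell 2.58-fold (adjusted p = 0.00937). These 3 ended 0.17 to 0.36 below wild type, none of them past the threshold. Nphs1, which encodes the slit protein nephrin and defines podocytes, read 9.54, 9.65 and 8.90 with vehicle and 9.36, 9.07 and 9.25 with metformin, with overlapping groups (-0.14 ± 0.20, adjusted p = 0.8). Kidney endothelial genes fell in 2 of 20, a number that was 4 without vehicle sample 2, 1 without vehicle sample 1 or metformin sample 1, and 0 without any other single sample.

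Genes of the proximal tubule, the segment that reclaims most filtered solutes, were among the classes with rises. Of 39 measured proximal tubule genes, 15 rose (38.5%) and 0 fell, against 2.67% and 2.27% of all probe sets, and 38 of 39 were higher with metformin. The count was 9 without vehicle sample 1 or metformin sample 3. Slc13a3, the dicarboxylate carrier that takes up citric acid cycle intermediates, read 13.34, 14.15 and 13.95 with vehicle and 15.32, 14.91 and 15.24 with metformin (2.54-fold, 1.34 ± 0.23, adjusted p = 0.00469). Slc7a13, an amino acid carrier of the late proximal tubule, read 15.21, 16.09 and 15.97 with vehicle and 16.69, 17.07 and 17.39 with metformin (2.45-fold, adjusted p = 0.00711). The defining gene Slc34a1 read 18.69, 18.67 and 18.40 with vehicle and 18.81, 19.01 and 18.86 with metformin, near the top of the array, and did not pass (0.31 ± 0.15, adjusted p = 0.296). Hnf4a, a transcription factor of proximal tubule identity, rose 1.78-fold from 13.52, 14.04 and 13.83 to 14.59, 14.64 and 14.65 (adjusted p = 0.00889, and 0.0503 with only the compared groups in the fit). Wild type stood at 15.11.

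Metformin's own carriers were among the genes that rose. Of 7 measured cation carriers that handle the drug, 4 rose (57.1%, against 2.67% of all probe sets) and 0 fell. Without vehicle sample 1 the rises numbered 2. Between metformin and losartan 0 of the 7 passed the test, with a median difference of -0.02. The higher level thus cannot be called particular to metformin. Slc22a2 (OCT2), which takes metformin from the blood into the tubule cell, read 15.67, 15.88 and 15.95 with vehicle and 16.74, 16.82 and 16.73 with metformin (1.91-fold, 0.93 ± 0.17, adjusted p = 0.00766), close to the wild type mean of 17.03. Slc47a1 (MATE1), which passes it on into the urine, read 14.96, 15.24 and 14.68 with vehicle and 15.70, 15.86 and 15.63 with metformin (1.71-fold, adjusted p = 0.0184). Its call was lost without vehicle sample 1 (adjusted p = 0.0674) or 3 (0.0696) or metformin sample 2 (0.068) or 3 (0.0573). Slc22a4 (OCTN1), a carrier of ergothioneine, rose most, from 8.85, 9.26 and 9.67 to 10.80, 11.07 and 11.57 (3.7-fold, 1.89 ± 0.24, adjusted p = 0.00111). The thiamine carrier Slc19a3 rose 2.23-fold (adjusted p = 0.0135, and 0.071 without vehicle sample 1). The carnitine carrier Slc22a5 was 0.73 ± 0.21 higher (adjusted p = 0.062, and 0.0308 without vehicle sample 2), and Slc47a2 and Slc29a4 read under 5.3 in all 6 samples with differences of -0.07 and -0.06. With losartan Slc22a2 read 16.72, 17.04 and 16.82, and Slc22a4 10.57, 11.24 and 10.96.

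Organic anion carriers, which secrete drugs and uremic toxins, rose in 13 of 24 measured members (54.2%, against 2.67% of all probe sets). They fell in 0, with a median of 1.10. The count of rises was 7 without vehicle sample 1 and 8 without metformin sample 3. Slc22a19 read 9.45, 10.64 and 10.96 with vehicle and 12.12, 12.84 and 13.13 with metformin (5.09-fold, 2.35 ± 0.40, adjusted p = 0.00457). Slc2a9, a urate carrier, read 6.04, 5.96 and 6.33 with vehicle and 7.42, 7.46 and 7.39 with metformin (2.48-fold, 1.31 ± 0.17, adjusted p = 0.00127). Several Slc22 genes of this list are near-identical copies that may share signal. Amino acid carriers rose in 10 of 21 (47.6%) and fell in 0, with 6 rises without metformin sample 3. Slc38a3, a glutamine carrier used in ammonia production, read 9.95, 9.86 and 10.55 with vehicle and 12.00, 11.36 and 11.96 with metformin (3.15-fold, adjusted p = 0.00504). Slc6a20b, a proline and imino acid carrier, rose 2.3-fold (adjusted p = 0.00213).

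Sugar and monocarboxylate carriers rose in 6 of 14 (42.9%, against 2.67% of all probe sets), all 14 being higher with metformin. Whichever single sample was left out, 4 or 5 rose. Slc2a5 (GLUT5), the fructose carrier, read 12.13, 12.55 and 12.83 with vehicle and 14.74, 14.43 and 14.61 with metformin (4.26-fold, 2.09 ± 0.22, adjusted p = 0.000174). Slc5a10 (SGLT5), which reabsorbs mannose and fructose in the kidney, read 13.52, 13.52 and 13.76 with vehicle and 15.46, 15.35 and 15.29 with metformin (3.4-fold, 1.77 ± 0.18, adjusted p = 0.000174). The metformin values lay above every other sample of the series, 1.34 over wild type (adjusted p = 0.000477). Slc16a4, an orphan monocarboxylate carrier, rose 3.77-fold (adjusted p = 0.00143).

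Proximal tubule genes are commonly driven by HNF1 factors, whose half-site reads GTTAAT. Among the sugar and monocarboxylate carriers this half-site occurred on either strand in 1 of 11 windows of 250 bases before RefSeq starts (10 genes), against 5.83% of 19143 windows on the array. The window that held it is 1 of 2 listed for Slc5a10, chr11:61720800-61721049 on the minus strand of GRCm38.p6. The match, 75 to 70 bases before the start, is in capitals.
Slc5a10: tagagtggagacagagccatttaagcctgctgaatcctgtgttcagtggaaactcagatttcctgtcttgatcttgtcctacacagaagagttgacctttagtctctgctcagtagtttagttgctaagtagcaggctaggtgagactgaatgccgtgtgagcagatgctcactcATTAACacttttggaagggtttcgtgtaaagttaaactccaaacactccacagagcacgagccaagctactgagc
A share of 1 in 11 windows is near that of the array.

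Other nephron segments showed fewer calls. Loop of Henle genes rose in 3 of 14 (21.4%, against 2.67% of all probe sets). The number of rises was 0 without vehicle sample 1 or metformin sample 3 and 1 without vehicle sample 3. Umod read 18.72 to 18.90 with vehicle and 18.91 to 18.94 with metformin (0.11 ± 0.15, adjusted p = 0.774). Of 13 distal convoluted tubule genes limma called 0, with 1 called without vehicle sample 2 or metformin sample 3. At an unadjusted p under 0.05, 3 were higher, against 4132 of 22206 probe sets in either direction. The sodium chloride carrier Slc12a3 was 0.59 ± 0.19 higher (adjusted p = 0.0969, and 0.0229 without vehicle sample 2). Principal cell genes rose in 1 of 15 (6.67%), a call that held only without vehicle sample 2 among the fits that left out 1 sample. Of 18 intercalated cell genes, which secrete acid or base, 1 rose and 1 fell. Without vehicle sample 2 there were 2 rises, the added one being the ammonia carrier Rhcg (0.75 ± 0.22 higher, adjusted p = 0.0664, and 0.00747 without that sample). Atp6v0a4, a proton pump subunit, read 11.11, 11.45 and 11.22 with vehicle and 12.63, 12.36 and 12.07 with metformin (2.13-fold, adjusted p = 0.0048). Foxi1, the transcription factor that specifies intercalated cells, read 10.63, 10.58 and 10.06 with vehicle and 9.49, 9.26 and 9.44 with metformin (2.04-fold lower, adjusted p = 0.00608), which is 1.60 below wild type (adjusted p = 0.000155). Klotho (Kl), the co-receptor of the phosphate hormone FGF23, rose 2.14-fold from 14.51, 15.29 and 14.57 to 15.79, 15.89 and 15.98 (adjusted p = 0.00847, and 0.0501 without vehicle sample 1).

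Gluconeogenesis and fructose use, both of which the proximal tubule performs, rose as well. Of 11 measured members, 6 rose (54.5%, against 2.67% of all probe sets) and 0 fell, with a median of 1.02. When 1 sample was left out, 4 to 7 rose. Pcx, pyruvate carboxylase, the entry step of gluconeogenesis, read 12.83, 13.65 and 13.25 with vehicle and 14.63, 14.61 and 14.81 with metformin (2.71-fold, 1.44 ± 0.20, adjusted p = 0.00145). Slc37a4, the glucose 6-phosphate translocase of the last step, read 12.63, 13.27 and 13.36 with vehicle and 14.41, 14.55 and 14.54 with metformin (2.66-fold, adjusted p = 0.00244). Khk, the fructokinase that commits fructose to breakdown, rose 2.74-fold (adjusted p = 0.00234) and Tkfc, a later enzyme of the same route, 2.18-fold (adjusted p = 0.00213). All 4 ended within 0.37 of wild type on the log2 scale, and the differences from wild type did not pass the test.

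Cholesterol synthesis rose in 12 of 20 measured members (60%, against 2.67% of all probe sets) and fell in 0. The median was 0.92, with 19 of 20 members higher with metformin. The count of rises was 3 without vehicle sample 1, 7 without metformin sample 2 and 5 without metformin sample 3. Sqle, squalene epoxidase, a rate-limiting step of the pathway, read 8.52, 9.01 and 9.09 with vehicle and 10.71, 10.68 and 10.31 with metformin (3.23-fold, 1.69 ± 0.20, adjusted p = 0.000747). Dhcr7, which makes cholesterol from its last precursor, read 7.44, 7.44 and 7.78 with vehicle and 8.86, 9.12 and 9.04 with metformin (2.74-fold, 1.45 ± 0.21, adjusted p = 0.00172). Fdps, which makes farnesyl diphosphate, rose 2.2-fold (adjusted p = 0.0135). Scap, the sterol sensor that escorts SREBP factors, rose 2.12-fold (adjusted p = 0.00973, and 0.0501 without vehicle sample 1). The list's median difference from wild type was -0.03, and 0 members differed from wild type.

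SREBP factors bind sterol regulatory elements, often beside a CCAAT box bound by NF-Y. In the 250 bases before the start, TCACNCCAC occurred on either strand in 1 of 20 windows of 16 cholesterol genes, against 1.03% of 19143 windows on the array. CCAAT occurred in 15 of the 20 (75%), against 35.0%. The window with the sterol element belongs to Hmgcs1, the enzyme of the step before HMG-CoA reductase, which was named for this match after its values were seen. Hmgcs1 read 15.54, 16.06 and 16.10 with vehicle and 16.51, 16.73 and 16.64 with metformin (0.73 ± 0.19, adjusted p = 0.0394). Its call was lost without vehicle sample 1 (adjusted p = 0.173) or metformin sample 1 (0.058), 2 (0.114) or 3 (0.124). It was also lost after quantile normalization (0.0859), with a replicate block (0.0586) and with only the compared groups in the fit (0.0887). The window is chr13:119690101-119690350 on the plus strand of GRCm38.p6. Capitals mark the sterol element 137 to 129 bases before the start and 3 CCAAT boxes, read here as ATTGG.
Hmgcs1: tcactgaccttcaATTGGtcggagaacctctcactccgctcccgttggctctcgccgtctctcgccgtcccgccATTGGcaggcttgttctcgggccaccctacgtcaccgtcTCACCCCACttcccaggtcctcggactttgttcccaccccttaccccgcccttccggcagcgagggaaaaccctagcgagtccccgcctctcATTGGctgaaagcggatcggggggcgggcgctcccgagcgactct

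Amino acid breakdown rose in 14 of 37 measured members (37.8%, against 2.67% of all probe sets) and fell in 0. The rises numbered 5 without vehicle sample 1 or metformin sample 3. Ivd, of leucine breakdown, read 12.43, 12.58 and 12.47 with vehicle and 13.53, 13.57 and 13.88 with metformin (2.25-fold, 1.17 ± 0.17, adjusted p = 0.00206). Dmgdh, which feeds one-carbon units from choline, rose 3-fold (adjusted p = 0.00355), and Gstz1, of tyrosine breakdown, 2.23-fold (adjusted p = 0.00345). The route from tryptophan to NAD rose in 6 of 19 (31.6%), with 2 without vehicle sample 1 or metformin sample 3. Afmid, its second enzyme, read 10.79, 10.92 and 11.11 with vehicle and 12.33, 12.04 and 12.68 with metformin (2.66-fold, adjusted p = 0.00213). Haao, the last enzyme before quinolinate forms, rose 2.5-fold (adjusted p = 0.00455). Of 5 medium-chain acyl-CoA synthetases, which activate short acids for conjugation, 2 rose: Acsm5 from 9.51, 9.85 and 9.85 to 11.34, 11.44 and 11.88 (3.52-fold, adjusted p = 0.000174) and Acsm1 4.27-fold (adjusted p = 0.00206). Among Cyp2 and related oxidases 5 of 19 rose, with 2 without vehicle sample 1 or metformin sample 3 and 3 without metformin sample 1.

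The classes tied to the drug's best-known targets had few calls, which does not show that they were unmoved. Of 15 measured AMPK subunits, upstream kinases and partners, 1 rose and 0 fell, and the median difference was -0.09. The catalytic subunit Prkaa2 read 14.93, 15.11 and 14.84 with vehicle and 15.02, 15.29 and 15.21 with metformin (0.21 ± 0.17, adjusted p = 0.578), and Prkaa1 was 0.38 ± 0.19 lower (adjusted p = 0.314). Stk11 (LKB1), the kinase that activates AMPK, was at 11.63 to 11.99 and 11.67 to 11.90 (adjusted p = 0.873). The member that rose was Fnip2, a folliculin partner (1.87-fold, adjusted p = 0.0142), which missed the threshold without vehicle sample 1 (adjusted p = 0.0681) or metformin sample 3 (0.0761). These are transcript levels and do not read kinase activity. Of 35 complex I subunits 1 rose, against 2.67% of all probe sets. It was Ndufa7 (1.76-fold, adjusted p = 0.0368), lost without vehicle sample 1 (0.147) or 3 (0.0734) or metformin sample 1 (0.105) or 3 (0.149). Of the 35 subunits 27 were higher with metformin and 8 lower (median 0.26). By limma's unadjusted p under 0.05, 11 were higher and 1 lower, against 4132 of 22206 probe sets in either direction.

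Complexes III to V rose in 3 of 34, with 0 without vehicle sample 1 or metformin sample 3 and 1 without vehicle sample 3 or metformin sample 1 or 2. The citric acid cycle rose in 3 of 26, Pcx included, with 1 without vehicle sample 1 or metformin sample 3 and 6 without vehicle sample 2. Of its 26 members 24 were higher with metformin (median 0.36). By limma's unadjusted p under 0.05, 12 were higher and 0 lower. Fatty acid oxidation rose in 2 of 36, and 31 of 36 were higher with metformin (median 0.31). By limma's unadjusted p under 0.05, 14 of these genes were higher and 0 lower. The peroxisomal oxidase Acox2 read 10.70, 11.09 and 10.89 with vehicle and 12.12, 12.36 and 12.72 with metformin (2.84-fold, adjusted p = 0.00143), while Cpt1b, which admits fatty acids to mitochondria in muscle, was 0.98 ± 0.28 higher (adjusted p = 0.0553, and 0.0245 without vehicle sample 2 or 0.0155 without metformin sample 1). This list had 6 rises after centring or without vehicle sample 2, 4 without vehicle sample 3, and 1 without vehicle sample 1 or metformin sample 2 or 3. Glycolysis had 0 calls in 18 by limma, with 2 rises after centring. At an unadjusted p under 0.05, 3 were higher and 1 lower, against 4132 of 22206 probe sets in either direction. Ldha, which makes lactate, was 0.59 ± 0.17 higher (adjusted p = 0.0629, and 0.0411 after centring). Fatty acid synthesis had 2 rises and 1 fall in 18, with 0 rises without vehicle sample 1 or metformin sample 3 and 1 without vehicle sample 3 or metformin sample 2. The fall was Acly, which makes cytosolic acetyl-CoA, 1.72-fold lower (adjusted p = 0.0272), a call lost without vehicle sample 1 (0.0969) or 3 (0.0549) or metformin sample 1 (0.0621) or 3 (0.117).

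Between metformin and losartan, 10 of 22206 probe sets passed the test (0.045%), 4 higher and 6 lower with metformin, and 1859 had an unadjusted p under 0.05. Of the 10, the 8 picked by the naming rule given below are described, and the rest are not reported here. Losartan was not tested against vehicle here, and the test between the drugs is the one that bears on a difference between them. The number was 91 without metformin sample 3, 6 without losartan sample 1 or metformin sample 1, and 5 without losartan sample 2. Ces1g read 12.22, 11.71 and 12.45 with losartan, 47.7-fold above metformin (-5.58 ± 0.43, adjusted p = 6.8e-06). Cyp4a12a, which makes the vasoactive lipid 20-HETE, read 13.43, 13.90 and 13.34 with losartan, 9.79, 11.50 and 10.93 with metformin and 10.88, 10.79 and 11.40 with vehicle. It was 7.05-fold lower with metformin than with losartan (-2.82 ± 0.33, adjusted p = 0.00146), and against vehicle the difference was -0.28 (adjusted p = 0.725). These 2 genes passed whichever sample was left out.

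Car3 was 6.82-fold higher with metformin than with losartan (2.77 ± 0.40, adjusted p = 0.0116), at 9.68, 10.04 and 10.01 with losartan. Without losartan sample 1 or 2 or metformin sample 2 its adjusted p was 0.0951, 0.061 and 0.102. The call was also lost with the trended robust prior (0.074). With only the metformin and losartan samples in the fit, Car3 (0.0687) and the other named genes except Ces1g and Cyp4a12a (0.0687 to 0.154) missed the threshold. Cyp4a12b, a close copy of Cyp4a12a that may share its signal, was 3.4-fold lower (-1.77 ± 0.24, adjusted p = 0.00782, and 0.0509 without metformin sample 1). Igfbp1, a secreted binder of insulin-like growth factors, read 5.45, 5.24 and 4.72 with losartan and 6.72, 6.37 and 6.61 with metformin (1.43 ± 0.21, adjusted p = 0.0116). Its call was lost without losartan sample 2 (0.061) or 3 (0.059) or metformin sample 1 (0.0808).

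Slc5a10 read 13.96, 14.32 and 14.46 with losartan and was 1.12 ± 0.18 higher with metformin (adjusted p = 0.0217). Slc10a2, the sodium-dependent bile acid carrier, read 10.75, 10.89 and 11.04 with losartan and 11.82, 11.82 and 12.37 with metformin (1.11 ± 0.17, adjusted p = 0.0217). The annexin Anxa13 was 1.38 ± 0.21 lower (adjusted p = 0.0185). For Slc5a10 and Anxa13 the call was lost without losartan sample 1 or 2 or metformin sample 1 or 2 (0.118 to 0.161 and 0.0648 to 0.133). For Slc10a2 it was lost without any single losartan sample or metformin sample 1 (0.0509 to 0.133). In each of the 8 genes the metformin and losartan samples did not overlap, which adds little because the genes were chosen by this test.

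**Figure D5:**
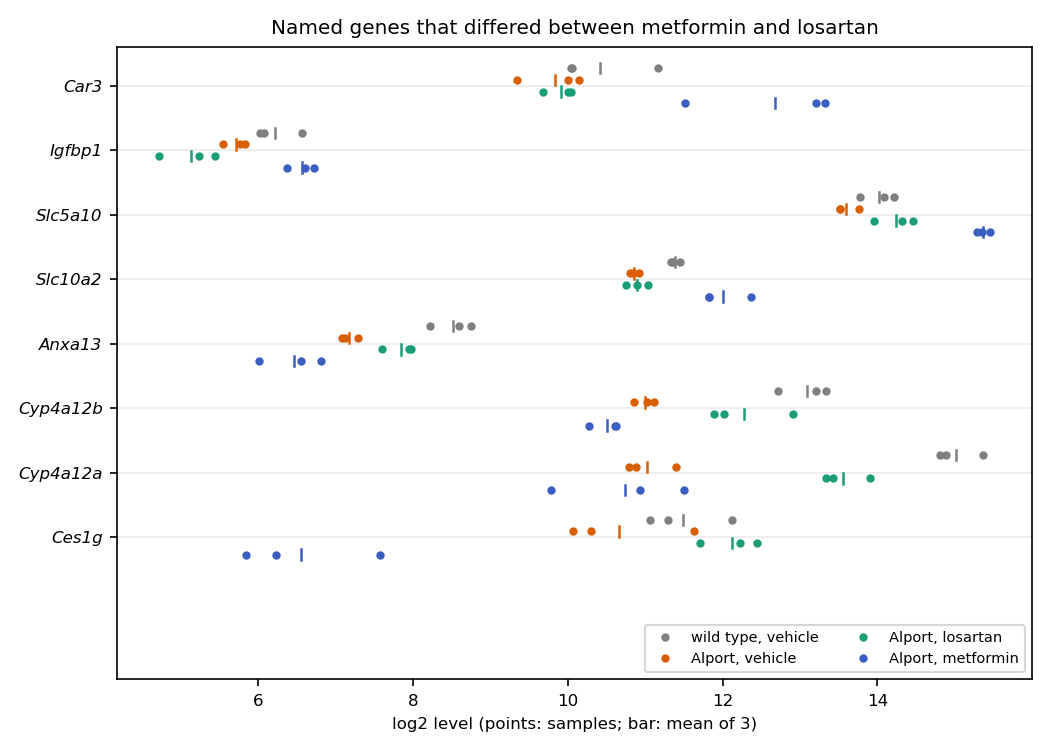
Log2 level (horizontal) of the 8 named genes that differed between metformin and losartan, in each of the 12 samples, coloured by group, with the mean of 3 samples as a bar. Car3, Slc5a10 and Slc10a2 are higher with metformin than in every other sample, Ces1g is lower than in every other sample, and in Cyp4a12a the metformin samples (9.79 to 11.50) lie with the vehicle samples (10.79 to 11.40).

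Against wild type, the metformin samples still differed in 928 probe sets (4.18%), 599 higher (2.7%) and 329 lower (1.48%). The count was 576 without wild type sample 1, 501 without sample 2 and 352 without sample 3, and 346 and 431 without metformin sample 1 and 2. Members above wild type numbered 19 of 25 for macrophages, 6 of 9 for MHC class II, 18 of 30 for injury, 15 of 28 for matrix, 9 of 17 for complement, 11 of 25 for mitosis and 6 of 14 for MHC class I. Of the 24 organic anion carriers and the 20 cholesterol genes 0 differed from wild type in either direction, which does not show that they are equal. Nupr1, a stress-induced chromatin protein, fell 2.74-fold with metformin (adjusted p = 0.00111) and stood 2.51 above wild type (adjusted p = 3e-06). Cyp4a12a, among the genes below wild type, was 19.4-fold lower than there (-4.28 ± 0.33, adjusted p = 3e-06).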

How the data were processed

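Total RNA of whole kidney from 12 samples was hybridised to Affymetrix Clariom S mouse arrays. The authors deposited 1 table of log2 values per probe set and sample, made with Transcriptome Analysis Console 4.0 per the submitters' processing notes. The normalization method is not given in the sources used here, and the values were used as deposited.

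A mean per group was fitted to all 12 samples with limma 3.58.1 in R 4.3.3 (8 residual degrees of freedom), with Benjamini-Hochberg adjustment over all 22206 probe sets of each comparison. An adjusted p under 0.05 is a call. Of the probe sets, 19572 had 1 gene symbol and 2634 went unnamed. Where a symbol had several probe sets, the brightest was used. On simulated data with 200 changed probe sets among 22206, 59.2% of log2 changes of 1 and 95.6% of changes of 2 were called for metformin against vehicle. The simulated noise was independent between probe sets, and fewer probe sets were changed than were called in the data, so these shares can differ there.

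Genes were counted in 67 lists, 1295 of whose 1415 entries were measured. The members and lists were chosen with earlier results of these data known. Named genes are, among called genes with a symbol and a level at or above the median of all probe sets, the 12 largest rises and 12 largest falls and up to 6 each way against losartan. Added to these are up to 4 members per list with the smallest p, all cation carriers and AMPK genes, the brightest member of each list of other cells, and fixed genes (Umod, Slc34a1 and Nphs1 as segment markers, Havcr1 and Lcn2 for injury, Acta2, Col1a1 and Tgfb1 for fibrosis, and Col4a5). Predicted genes were left out. Alternatives were median centring, quantile normalization, a filter on the dimmest 33.3% of probe sets, a trended robust prior, array weights, only the groups compared, a replicate block, an unadjusted p with a 2-fold change, and leaving out each sample. Promoter sequences are RefSeq's, build GRCm38.p6.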

Additional observations from a re-analysis of the deposited data

How the results depend on the processing

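Median centring, quantile normalization, a filter on the dimmest 33.3% of probe sets, a trended robust prior and array weights kept the number of changed probe sets for metformin against vehicle (1096) within 1.5-fold. With only the compared groups in the fit it was 410 (232 higher, 178 lower), and 401 of these were among the 1096. An unadjusted p under 0.05 with a 2-fold change gave 512 (239 higher, 273 lower). Leaving out 1 sample gave 266 to 1320 (152 to 684 higher, 114 to 636 lower). Against losartan, array weights gave 17 in place of 10, only the compared groups gave 3, and leaving out 1 sample gave 5 to 91. Against wild type, leaving out 1 sample gave 346 to 1019 in place of 928. Quantile normalization set the share of rises among calls at 50.9%. Of the 158 called genes that the text may name, 153 kept their call after centring, 99 with only the compared groups and 83 to 146 without 1 sample, and 0 reversed in these fits. A replicate block gave 910 calls (864 of them among the 1096), 15 against losartan and 803 against wild type. The labels state no pairing by replicate number. The deviations of vehicle and metformin samples with the same number correlated at 0.067, -0.083 and -0.122, which cannot exclude a shared block. In simulated data 4.8% of changes of 0.5 on the log2 scale were called. That simulation had 200 changed probe sets and noise independent between probe sets, so the share in this comparison can differ.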

Other observations

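Ciart, a repressor of the circadian clock, was among the largest rises. It read 4.29, 5.55 and 5.22 with vehicle and 6.89, 7.14 and 7.31 with metformin (4.27-fold, 2.09 ± 0.27, limma adjusted p = 0.00111) and stood 1.25 above wild type (adjusted p = 0.0162). Of 18 clock genes, 3 rose and 0 fell, with 1 rise without vehicle sample 1 or metformin sample 3. Arntl (BMAL1), which drives the clock, was 0.72 ± 0.25 lower (adjusted p = 0.118). The labels used here do not give the hour of tissue collection. Clock factors bind the E-box CACGTG, which occurred in 6 of 21 windows of 250 bases before the start of 16 clock genes (28.6%), against 6.88% of 19143 windows on the array. The window of Ciart, chr3:95882229-95882478 on the minus strand of GRCm38.p6, held 3, in capitals.
Ciart: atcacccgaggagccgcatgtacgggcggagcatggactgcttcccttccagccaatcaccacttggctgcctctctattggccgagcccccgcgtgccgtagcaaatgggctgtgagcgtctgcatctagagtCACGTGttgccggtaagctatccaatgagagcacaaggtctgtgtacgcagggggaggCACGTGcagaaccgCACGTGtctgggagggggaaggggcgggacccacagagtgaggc

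Among Wnt ligands and antagonists 4 of 23 fell and 0 rose, with 2 without metformin sample 2 and 1 without metformin sample 3. Sfrp4, a secreted Wnt antagonist, read 4.95, 5.96 and 6.55 with vehicle and 3.64, 3.97 and 3.63 with metformin (4.21-fold lower, adjusted p = 0.00217), near the wild type mean of 4.02. Map1lc3a, a coat protein of autophagosomes, was the riser among 23 lysosome and autophagy genes, from 8.94, 9.36 and 8.99 to 10.22, 9.84 and 10.50 (2.13-fold, adjusted p = 0.0055).

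Markers of tissue next to the kidney were dim. The median level of 11 urothelial genes was 5.02, 4.90 and 6.64 with vehicle and 4.69, 4.83 and 4.69 with metformin. That of 11 adipocyte genes was 4.93, 4.62 and 5.82 with vehicle and 4.32, 4.94 and 4.49 with metformin. Vehicle sample 3 was highest in both, and the part of these cells in the results was not tested. Limma called 1 urothelial gene, Upk1b (2.31-fold lower, adjusted p = 0.02, and 0.0721 without vehicle sample 3).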
